A study of Drosophila melanogaster with 7 samples.

Results

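The apicobasal polarity complexes were followed on arrays that compared RNA of lola mutant and control Drosophila melanogaster embryos. The group was built around par-6, chosen by its lower array ratio in the mutant, with further genes of the same complexes added by their function while the array results were known. It held 10 genes: par-6, par-1, baz, aPKC, l(2)gl, dlg1, scrib, crb, sdt and Patj. A feature, which is a spotted cDNA clone, was counted as a member where the platform's probe-to-gene table paired it with 1 of these genes and no other. This gave 10 features of 7 genes, out of 10227 features tested and 7583 genes named. The other 3 genes had no such feature: baz had none at all, the 3 clones of par-1 and the 2 of Patj were each paired with further genes, and no value is given for them. A clone each of aPKC and sdt was left out on the same ground. The study lists par-1 beside par-6 and scrib among its lola-dependent polarity genes. The missing value for par-1 here is therefore not a lack of change.

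Each of the 7 arrays set total RNA of mutant embryos against RNA of control embryos. Both genotypes were w1118 and carried sca-GAL4 as driver on one second chromosome and UAS-tau-eGFP as reporter on the other, and in the mutants each of these chromosomes also carried lolaORE76. The allele lolaORE76 puts a stop codon in the region common to all isoforms of Lola, a BTB zinc-finger transcription factor of axon growth. The study notes that Lola from the mother is still present in such embryos. Embryos of 10 to 12 hours after egg laying were sorted by fluorescence in the CNS, and each RNA sample came from approximately 300 whole embryos. Mutant embryos were labelled with Cy5 for arrays 1, 3 and 6 and with Cy3 for arrays 2, 4, 5 and 7. The pairs were collected independently, so the array is the replicate, and 7 arrays limit the precision. All values are log2 ratios of mutant over control. This direction is likely rather than stated: the deposited table does not name the numerator, and every sign was turned, because 14 of 14 clones that could be compared had the sign opposite to the array changes that the study lists for its RT-PCR genes. Ratios hold no expression levels, and in RNA of whole embryos fewer cells of a type and less RNA per cell cannot be told apart. For the same reason the identity of the tissue cannot be checked against its markers.

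Epithelial cells and neuroblasts have an apical and a basal side, which are set by groups of proteins that exclude each other from the cell cortex. Par-6, the kinase aPKC and the scaffold Bazooka act on the apical side, together with the transmembrane protein Crumbs and its scaffolds Stardust and Patj. Scribble, Discs large and Lethal (2) giant larvae act on the lateral side, and the kinase Par-1 keeps Bazooka away from it. In dividing neuroblasts Par-6, aPKC and Bazooka on the apical side place fate determinants at the opposite pole.

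Among the 10 member features, par-6 was the one that was lower in the mutant, one of the scrib clones was higher, and the other 8 did not pass. These are 2 of 10 features, with 6.11% of all features passing (adjusted p under 0.05 over all 10227 features in limma, which tests the mean of the arrays against 0). By direction, 1 fell where the share of all features was 2.52%, and 1 rose where it was 3.59%. Since the genes were chosen with this contrast known, the calls and adjusted p-values below place each feature in the whole-table fit and are a description, not a test of the group. The median of the member means was 0.10, beside -0.01 for all features, and 8 of the 10 means lay above 0.

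**Figure D1:**
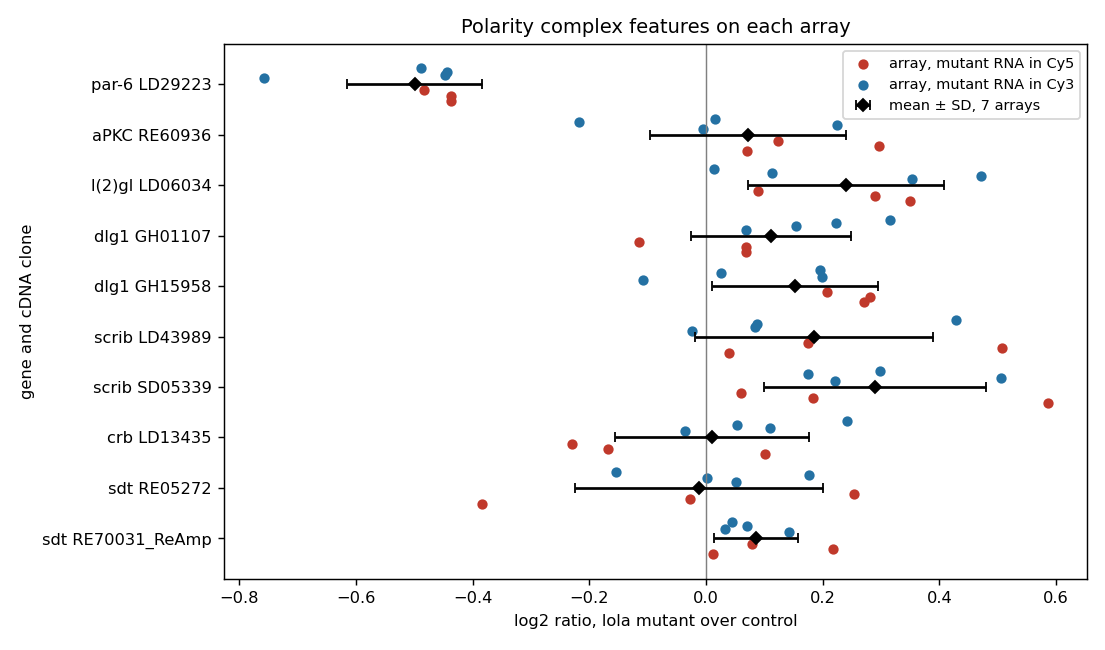
Log2 ratio of mutant over control (x axis) for each of the 10 polarity complex features (y axis). Circles are the 7 arrays, coloured by the dye of the mutant RNA, and diamonds with bars are the mean ± SD. The 7 values of par-6 lie between -0.76 and -0.44, and the lowest value of any other feature is -0.38.

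The apical adaptor par-6 encodes a PDZ domain protein that links aPKC to the small GTPase Cdc42. Its 1 feature, clone LD29223, read -0.48, -0.76, -0.44, -0.45, -0.44, -0.44 and -0.49 on arrays 1 to 7. The control was therefore the higher sample on 7 of 7 arrays, and 6 of the values lay within a band far narrower than the distance to 0, with array 2 apart below them. The mean was -0.50 ± 0.12 (SD, n = 7; limma adjusted p = 0.00116), a level of 70.7% of the control. Without array 2 it was -0.46 ± 0.02. The SD of par-6 was smaller than that of most features: 14.4% of all features had a smaller one, as did 95 of the 625 that passed. Of the 10227 features, 100 had a lower mean. The orientations of the dyes gave close values, -0.45 ± 0.03 on the 3 arrays with mutant RNA in Cy5 and -0.54 ± 0.15 on the 4 in Cy3.

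On each of the 7 arrays par-6 was the lowest of the 10 member features. Since par-6 was chosen by its low ratio, its rank and its distance from other members are descriptions only. The next lowest was crb on arrays 1 and 3, dlg1 GH15958 on array 2, aPKC on array 5, and sdt RE05272 on arrays 4, 6 and 7. The gap to it ranged from 0.05 on array 6 to 0.65 on array 2. On array 6 the small gap came from sdt RE05272, which read -0.38 there.

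The kinase gene aPKC, whose product binds Par-6 and phosphorylates the lateral proteins, had values on both sides of 0. Its clone RE60936 read 0.12, -0.01, 0.30, 0.22, -0.22, 0.07 and 0.02 on arrays 1 to 7, positive on 5 of them. The mean of 0.07 ± 0.17 had a 95% interval from -0.08 to 0.22 in the fit (limma adjusted p = 0.616). The root mean square difference between the aPKC and par-6 values over the 7 arrays was 0.60, and over all other members it ran from 0.54 for crb and sdt RE05272 to 0.81 for scrib SD05339.

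The Crumbs complex had means close to 0. The apical determinant crb was measured by clone LD13435, which read -0.23, -0.04, -0.17, 0.11, 0.05, 0.10 and 0.24 on arrays 1 to 7. The arrays fell on both sides of 0, with 4 above and 3 below, and the mean was 0.01 ± 0.17 (95% interval -0.14 to 0.16). The MAGUK scaffold gene sdt, which ties Crumbs to Patj, had 2 clones of its own. Clone RE70031_ReAmp read 0.08, 0.14, 0.22, 0.03, 0.07, 0.01 and 0.04, above 0 on all 7 arrays but by little, and its SD was smaller than that of all but 2.01% of features. Its mean was 0.09 ± 0.07 (interval -0.02 to 0.19). Clone RE05272 scattered far more, at 0.25, 0.05, -0.03, 0.00, 0.18, -0.38 and -0.15, with a mean of -0.01 ± 0.21. The clones differed most on array 6, by 0.40, and the mean without that array was 0.05 for RE05272.

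The Scribble module, which holds the lateral domain and restrains growth, lay above 0 on all of its 5 features. The large scaffold gene scrib, with leucine-rich repeats and PDZ domains, was read by 2 clones. On SD05339 the arrays gave 0.06, 0.22, 0.18, 0.50, 0.17, 0.59 and 0.30, all 7 above 0 and highest on arrays 4 and 6. The mean was 0.29 ± 0.19 (limma adjusted p = 0.0435), which is 1.22-fold. On LD43989 they gave 0.17, -0.02, 0.51, 0.08, 0.09, 0.04 and 0.43, highest on arrays 3 and 7, with a mean of 0.18 ± 0.20 (adjusted p = 0.203). The clones thus had their high values on different arrays, SD05339 being above LD43989 on 4 arrays and below it on 3, and the mean difference LD43989 minus SD05339 was -0.10 ± 0.32. The average of both clones was 0.24 ± 0.12 and passed over the 7583 gene averages (limma adjusted p = 0.0361), where 5.59% of genes passed. SD05339 stood close to the threshold: it lost its call when array 2, 3, 4, 5, 6 or 7 was left out, with adjusted p from 0.0638 to 0.138, and kept it without array 1 (adjusted p = 0.0322). The average of both clones lost its call without the same arrays (adjusted p from 0.057 to 0.116), with a minimum fold of 1.1 (adjusted p = 0.757) and on the arrays with mutant RNA in Cy5 alone (adjusted p = 0.249).

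The cortical protein gene l(2)gl, a tumour suppressor that aPKC phosphorylates, was above 0 on all 7 arrays without passing. Clone LD06034 read 0.09, 0.35, 0.29, 0.47, 0.11, 0.35 and 0.01, lowest on arrays 7 and 1. The mean was 0.24 ± 0.17 (95% interval 0.09 to 0.39; limma adjusted p = 0.0686). The third gene of the module, dlg1, encodes the MAGUK scaffold Discs large. Its clone GH15958 read 0.21, -0.11, 0.28, 0.20, 0.03, 0.27 and 0.20, with array 2 the 1 array below 0, and GH01107 read -0.12, 0.07, 0.07, 0.15, 0.22, 0.07 and 0.32, with array 1 the 1 below. Their means were 0.15 ± 0.14 and 0.11 ± 0.14 (adjusted p = 0.197 and 0.352), and the average of the clones was 0.13 ± 0.09 (adjusted p = 0.181). Counting all members, 4 of 10 features had 7 arrays of 1 sign, against 9.7% of all features. They were par-6, l(2)gl, scrib SD05339 and sdt RE70031_ReAmp. Among all features 4.5% lay below 0 on every array, as 1 member did, and 5.2% lay above 0 on every array, as 3 members did. The genes were chosen with these ratios known, par-6 by its own, so these sign counts are a description and not a test.

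**Figure D2:**
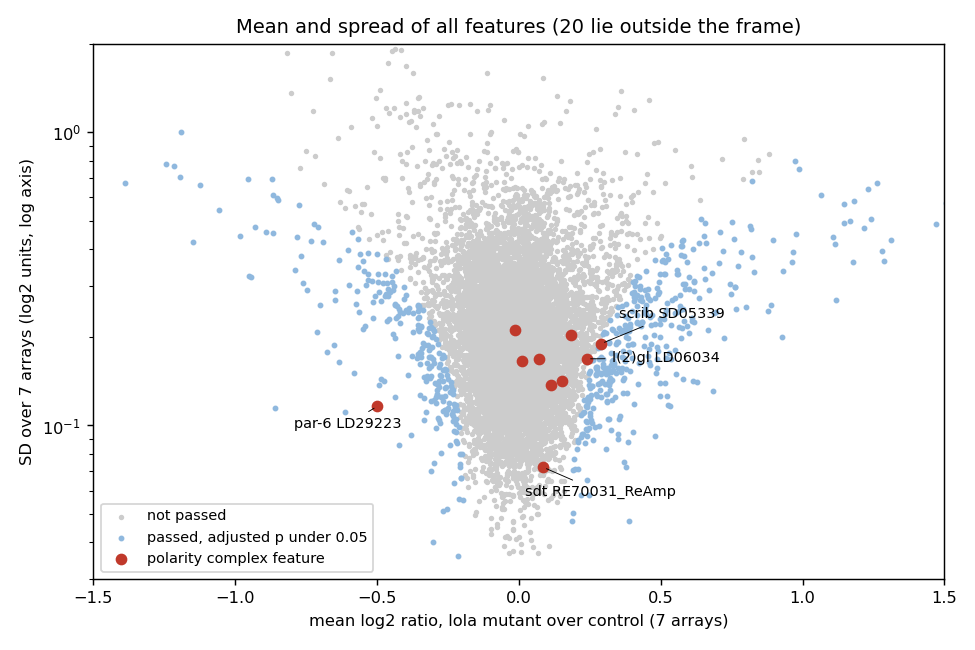
Mean log2 ratio over 7 arrays (x axis) against the SD over the arrays (y axis, log scale) for all features, 20 of which lie outside the frame. The par-6 feature sits at -0.50 with an SD of 0.12 among the features that passed, and the other members lie between -0.01 and 0.29.

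Dye orientation was compared because it is a technical split that the labels give. None of the 10 member features passed for the dye term in limma with adjustment over all features, where 11.5% of features did, and 0 of the 10 had an interval that left out 0. The dye term, which is positive where the Cy5 arrays are higher, was largest in size for crb, at -0.10 (95% interval -0.23 to 0.03), for dlg1 GH01107, at -0.09 (-0.20 to 0.02), and for dlg1 GH15958, at 0.09 (-0.03 to 0.21). The 2 clones of dlg1 therefore pointed opposite ways, GH15958 being at 0.25 on the Cy5 arrays and 0.08 on the Cy3 arrays, and GH01107 at 0.01 and 0.19. For aPKC the means were 0.16 and 0.00.

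Array 6 stood apart from the others in markers of muscle and of cuticle and epidermis. The average ratio of 5 measured muscle marker genes was -1.73 there and from -0.56 to 0.78 on the other arrays, and that of 6 cuticle and epidermis genes was -0.84 against -0.24 to 0.09. Other arrays varied too: every feature of the muscle list was below 0 on array 7 and above 0 on array 3. Of the muscle and the cuticle and epidermis lists, 0 of 5 and 1 of 6 genes passed, where 6.04% of all genes had a feature that passed. The 2 measured neuronal markers averaged -0.53 on array 6 against -0.21 to -0.02 elsewhere, but they differed there. On array 6 nSyb read -1.14 and futsch 0.07, so the low average came from nSyb alone. Without array 6 the means of par-6, scrib SD05339 and l(2)gl were -0.51, 0.24 and 0.22. The lowest value of sdt RE05272 and the highest of scrib SD05339 were both on this array, and the part of those tissues in them was not tested.

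Partner genes of the complexes were read from 7 lists chosen for their known links to them. Of 37 measured genes among 60 listed, 2 rose and 1 fell, or 8.11%, where 6.04% of all genes had a feature that passed. The median of their 46 feature means was 0.02. Moe, which encodes moesin, a linker between the actin cortex and membrane proteins such as Crumbs, was the 1 of 6 measured genes to pass in the list of Par and Crumbs partners. It read 0.44, 0.47, 0.43, 0.02, 0.43, 0.29 and 0.62 on arrays 1 to 7, near 0 on array 4 alone, with a mean of 0.38 ± 0.19 (limma adjusted p = 0.0138). The call was lost without array 2 (adjusted p = 0.0566). In the same list veli, a small PDZ protein gene of the Crumbs complex, was at 0.20 ± 0.16 (adjusted p = 0.115), and Cdc42, to whose product Par-6 binds, had no feature of 1 gene.

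The list of other PDZ scaffold genes was picked by hand and does not hold all PDZ domain genes of the array. The study gives PDZ domain-containing proteins the highest enrichment factor among its annotation clusters. Among 13 measured genes of the hand-picked list, 1 rose, a share near the 6.04% of all genes with a feature that passed. This was CASK, a MAGUK gene of synapses, on clone RH26066, which read 0.32, 0.33, 0.52, 0.41, 0.16, 0.14 and 0.18, above 0 on 7 arrays, with a mean of 0.29 ± 0.14 (limma adjusted p = 0.0221). Its other clone, RE09582, was at 0.15 ± 0.21 and did not pass (adjusted p = 0.337). The call of RH26066 was lost without array 2, 3 or 4, with adjusted p of 0.0807, 0.0566 and 0.0779. Moe, CASK, par-6 and scrib are all genes that the study lists from these arrays, so their counts are not independent evidence.

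Among 5 measured adaptors of asymmetric division, 1 fell. It was pon, whose product carries the Notch inhibitor Numb to the basal pole of dividing neuroblasts. Clone RE65495_ReAmp read -0.20, -0.71, -0.39, -0.54, -0.40, -0.13 and 0.01, lower in the mutant on all arrays but array 7, and the mean was -0.34 ± 0.25 (limma adjusted p = 0.0481). The call was lost without array 1, 2, 3, 4 or 5 (adjusted p from 0.0568 to 0.152) and with each array centred on its median (adjusted p = 0.0516). The other adaptor genes were close to 0, with numb at 0.00 ± 0.08, mud at -0.04 ± 0.08, Galphai at -0.05 ± 0.27 and pins at 0.06 ± 0.19; insc and mira had no feature of 1 gene. Of 4 measured neuroblast marker genes, 3 rose, namely ase, pros and wor at 0.51, 0.42 and 0.37, and dpn was at 0.16. The share of all genes with a feature that passed, 6.04%, is the background for this and the following marker lists. The list average ran from 0.15 to 0.61 over the arrays, so it lay above 0 on every array while par-6 and, but for array 7, pon lay below. The part of neuroblast number in the values of par-6 and pon was not tested. Of 5 glial marker genes, 0 rose and 2 fell, and of 2 measured neuronal ones 0 passed. Of 4 haemocyte genes 3 rose, and of 2 tracheal genes 1 rose.

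In the other 4 lists 0 genes passed in limma, where 6.04% of all genes had a feature that passed. Few of their genes were measured. These were 4 of 6 in the lateral Yurt and Coracle group and Scribble partners and 4 of 7 Par-1 regulators and substrates. In planar polarity they were 3 of 10, and in the adherens junction list 5 of 7. Wnt4, a planar polarity gene that the study lists as lola-dependent, had no feature of 1 gene. The largest mean among the lateral Yurt and Coracle group and Scribble partners was that of gukh, whose product binds Scribble, at 0.24 ± 0.19 (limma adjusted p = 0.0925). It was that of 14-3-3zeta, at 0.06 ± 0.12, among the Par-1 regulators and substrates, and that of dgo, at 0.20 ± 0.24, in planar polarity. In the adherens junction list it was that of p120ctn, the catenin gene, whose clones LD03740 and LD33274 were at -0.21 ± 0.23 and -0.20 ± 0.18 (adjusted p = 0.196 and 0.133).

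**Figure D3:**
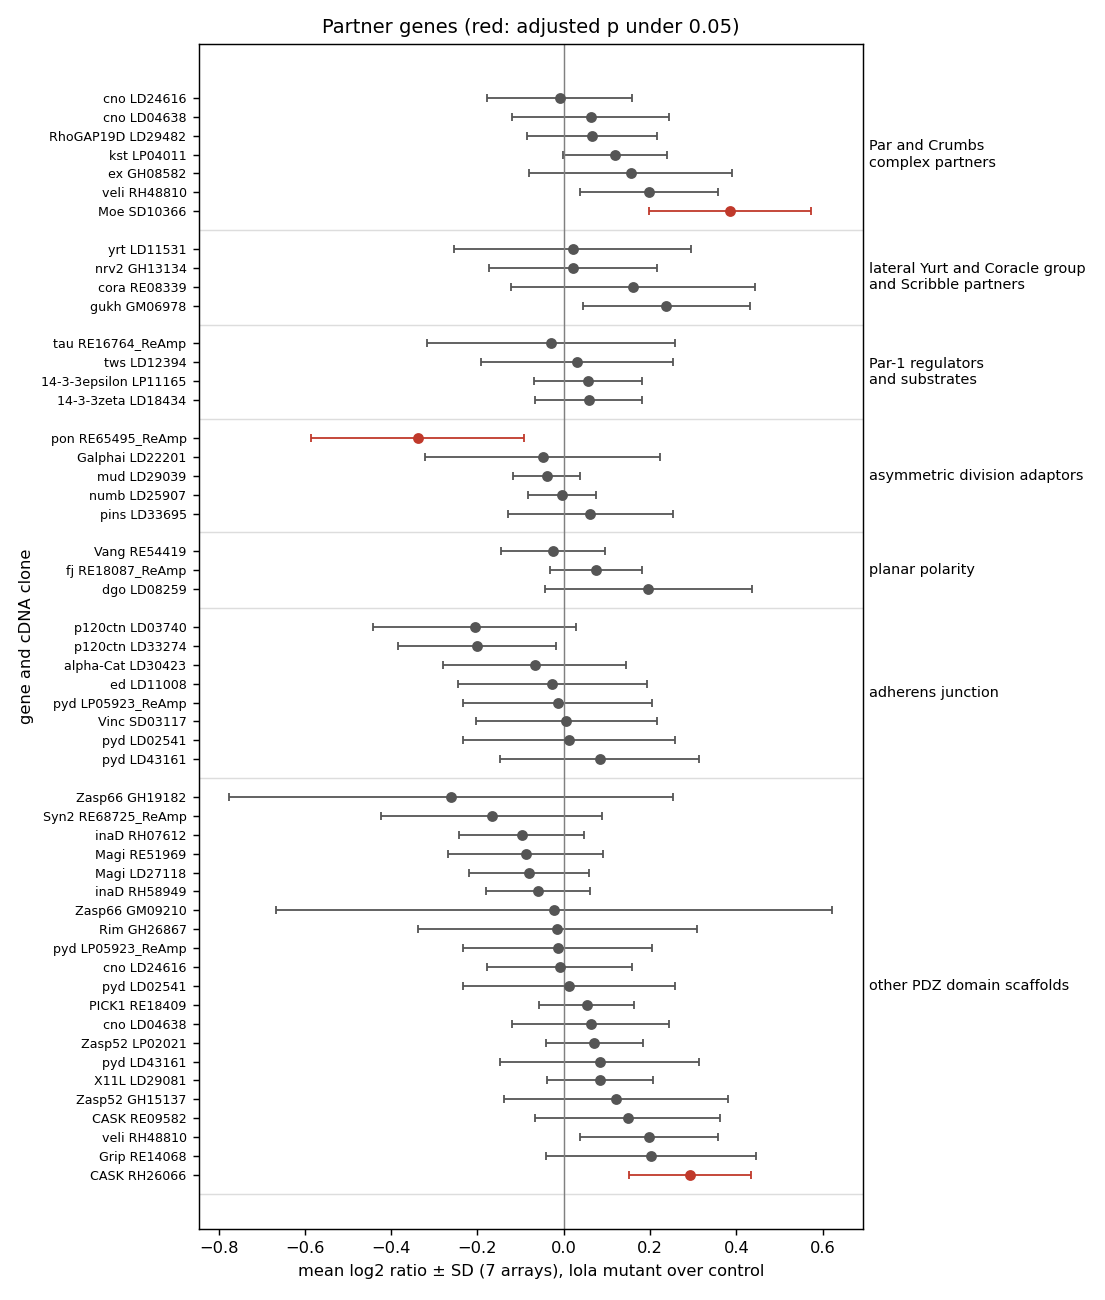
Mean log2 ratio ± SD over 7 arrays (x axis) of each measured partner feature (y axis), by list, with features past the threshold in red. Moe at 0.38, CASK RH26066 at 0.29 and pon at -0.34 are the 3 in red; a gene that belongs to more than 1 list is drawn in each.

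The array patterns nearest to that of par-6 belonged to genes outside the member and partner lists. By root mean square difference over 7 arrays among all features of 1 gene, the nearest were CG15715 (RE26825) at 0.14, sgl (clone GH20839) at 0.15 and CG7841 (AT03386) at 0.15. The proteoglycan synthesis gene sgl was at -0.48 ± 0.14 on GH20839, CG15715 at -0.48 ± 0.14 and CG7841 at -0.44 ± 0.12, and these 3 clones were lower in the mutant on 7 of 7 arrays. The other sgl clone, SD09476, was at -0.44 ± 0.26, with array 7 at 0.01. These clones were singled out by their likeness, so no test is given.

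The genes beside par-6 on the X chromosome did not share its value. In RefSeq gene order (Release 6 plus ISO1 MT), the 3 nearest measured genes on each side gave 7 features with means from -0.17 to 0.23 and 0 passed in limma, the lowest adjusted p being 0.312. The nearest, CG8173, was at -0.10 ± 0.30, and par-6 overlapped 0 genes in that table. Beside scrib on 3R, 9 features of 6 genes had means from -0.46 to 0.33, and 1 passed, CG5455 at 0.33 ± 0.21 (limma adjusted p = 0.0353). Some of these features scattered widely: TwdlB was at -0.46 ± 1.72, and TwdlM RE40518 read 2.78 on array 3 and -3.49 on array 6. Beside l(2)gl, near the end of 2L, 3 measured genes gave 4 features with means from -0.33 to 0.27, and 0 passed in limma, the lowest adjusted p being 0.0534. They were Cda5 at 0.12 ± 0.14, the 2 clones of dbr at 0.27 ± 0.19 and 0.25 ± 0.18, and galectin at -0.33 ± 0.60, which read -1.37 on array 6. The second chromosome carries the lola allele, and l(2)gl and aPKC lie on its arms. Linked differences within these 2 genes between the mutant and control chromosomes cannot be told apart from the allele. The study does not exclude effects of modifier loci on the lola chromosome. Such effects cannot be told apart from the allele for any member, par-6 and scrib included. The lola gene itself had 4 features with means from 0.01 to 0.65, and 2 of them rose; a stop codon need not change the RNA level, so they do not check the labels.

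**Figure D4:**
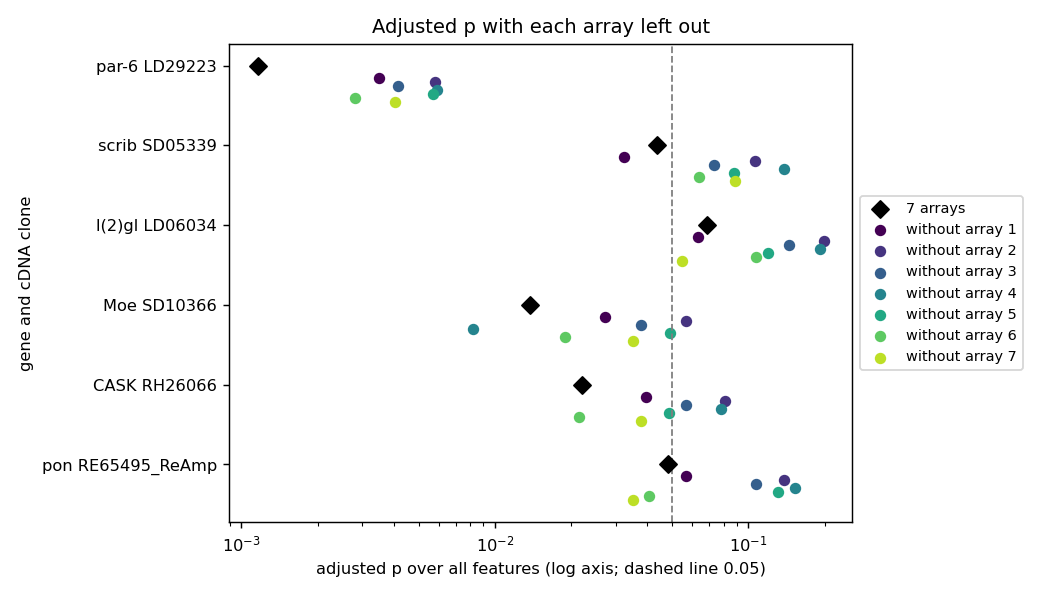
Adjusted p over all features (x axis, log scale) for 6 features (y axis) with 7 arrays (diamonds) and with each array left out (circles); the dashed line is the threshold of 0.05. The circles of par-6 lie between 0.00281 and 0.00593. Those of scrib SD05339, pon, Moe and CASK RH26066 lie on both sides of the line, and those of l(2)gl lie above it.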

How the data were processed

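The authors extracted spot intensities with GenePix from spotted cDNA arrays of the Drosophila Gene Collection, applied no background correction, normalized by print-tip loess within arrays and by scale between arrays in limma, and deposited 1 log2 ratio per feature and array. Which limma version they ran is not given in the sources used here. Spot brightness was not used here, so dim features cannot be told from bright ones. The table held 10376 features with 0 missing values; 149 control spots, which the study's own test kept, were left out. Platform genes were brought to current symbols by gene ID through a RefSeq table; 55 clones that the study assigns to retrotransposons or several sequences were not named. No coordinates are given, since the clones have no stated build.

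The deposited columns shared 1 direction over both dye orientations (of 70 features whose absolute log2 ratios averaged over 1, the orientations had equal signs for 62) and were multiplied by -1. Mutant over control was fitted, with the functions that the study's methods name, in limma 3.58.1 (lmFit, then eBayes, both at defaults; R 4.3.3), two-sided, with Benjamini-Hochberg adjustment over all 10227 features, and was tested on simulated data. Intervals are at 95% from the same fit. Gene averages were taken over clones within each array. The dye term was coded +1 and -1.

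All features of the members, partner genes past the threshold, the partner gene of each list with the largest mean, the 3 genes nearest to par-6 and lola are named; other genes were named after their values were seen. Members and lists were chosen with earlier results of these data known. Alternatives were a dye term, array weights, median centring, quantile normalization, a minimum fold of 1.1, control spots kept, each dye orientation alone, and each array left out.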

Additional observations from a re-analysis of the deposited data

Results flagged for a closer look

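The par-6 clone LD29223 had 1 array far from the other 6. Array 2 read -0.76, while the others lay between -0.49 and -0.44. The gap was 0.839 of the whole range, above the critical value of Dixon's test for 7 samples. Of 13 features looked at in this way, 1 was flagged, and chance flags about 1 group in 20.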

How the results depend on the processing

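Every array holds a mutant and a control sample as 1 ratio, which is already their paired difference. The fit was therefore a paired one, and the deposited ratios allow no unpaired analysis. Over all features 625 passed, and 2057 with array weights, 184 with a minimum fold of 1.1, 2501 with the Cy3 arrays alone and 0 with the Cy5 arrays alone in limma; leaving out single arrays gave 246 to 775. Of the 10 member features 2 passed, par-6 and scrib SD05339, against 1 with a minimum fold of 1.1, 0 with the Cy5 arrays alone and 1 to 2 without single arrays; the same counts held for the gene averages. The par-6 feature kept its call in 14 of 15 alternatives, with means from -0.54 to -0.45, and did not pass with the 3 Cy5 arrays alone (limma adjusted p = 0.167). With array weights l(2)gl passed (adjusted p = 0.0197). Of the partner genes 3 passed, against 8 with array weights, 9 with the Cy3 arrays alone, 0 with a minimum fold of 1.1, 0 with the Cy5 arrays alone and 0 to 4 without single arrays. For the dye term 0 of the member features passed under any setting run. The sign turned for crb with the dye term (-0.00364), with the Cy5 arrays alone (-0.10) and without single arrays (-0.0285 to 0.05004), and for sdt RE05272 with array weights (0.0426), with the Cy3 arrays alone (0.0184) and without single arrays (-0.0564 to 0.0498). The splits by dye and the leave-one-out fits use fewer arrays, and the minimum fold sets a stricter null. Counts over all features moved both ways with fewer arrays, to 2501 with the Cy3 arrays alone and 775 without array 6. They moved to 0 with the Cy5 arrays alone. Array weights removed no array, and 2057 passed. The cause of these shifts was not tested.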
